A study of Mus musculus with 6 samples.

Results

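The 34 genes described here encode the Fanconi anaemia proteins, the proteins of homologous recombination and the kinases of the DNA damage checkpoint. They were chosen by name from these pathways, with earlier results of these data known. All 34 were found among the 31771 Ensembl genes of the count table and among the 19573 that passed the expression filter. The mutants were 3 C57BL/6 mice of genotype VEC-Cre;SB Transposase; onc2, and the controls were 3 WT mice of the same strain. The mutants carry Cre recombinase under the promoter of VE-cadherin, a Sleeping Beauty transposase and the onc2 transposon, which can activate or disrupt the genes it lands in; VEC-Cre acts in endothelium and in blood cells that arise from it. The labels give WT as the whole genotype of the controls, and they give no age, litter or batch. Poly-A RNA from a piece of each spleen was sequenced, so fewer cells of a type and less RNA per cell cannot be told apart in any value below.

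When a crosslink joins the strands of DNA, the replication fork stalls and the Fanconi core complex, a ubiquitin ligase, marks the FANCD2-FANCI pair. Nucleases then cut the crosslinked strand free, and the broken end is resected and repaired from the sister chromatid by BRCA1, BRCA2 and their partners. ATR and ATM sense the damage and act through CHEK1 and CHEK2. Blood-forming cells depend on this system, and inherited defects in it cause bone marrow failure in humans. Many of these genes are known to be transcribed mainly in dividing cells.

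Libraries held 72902118 to 79258116 counts, and a member had between 42 and 9312 counts in a library. Levels are CPM, each count taken relative to its library's total, and fold changes are log2 of mutant over WT ± SE from edgeR's quasi-likelihood test, with p-values adjusted over all 19573 genes by Benjamini-Hochberg at 0.05. By Xist and Ddx3y, mutants 1 and 2 were female and mutant 3 and all 3 WT animals were male. Mutants varied far more among themselves than WT animals did (biological coefficient of variation 72.7% in mutants, 17.1% in WT).

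Of the 34 genes 12 rose in mutant spleens, by 1.16 to 2.54 on the log2 scale. They were Chek1, Rad54l, Exo1, Brca2, Rbbp8, Chek2, Blm, Brip1, Eme1, Bard1, Fancd2 and Rad54b. That is 35.3% of the members, where 5.08% of all genes tested were called higher. No member was called lower by edgeR, where 6.90% of all genes were, and 0 had a lower value at an unadjusted p under 0.05; DESeq2 and limma-voom with sample weights also called 0 lower. By role, those that rose were 3 of 3 in the group of Rad54l, Rad54b and Blm and 3 of 5 members of the BRCA complexes. They also were 3 of 5 nuclease and resection genes, 2 of 5 checkpoint genes and 1 of 2 genes of the FANCD2-FANCI pair. In the core complex group 0 of 9 passed, and in the group of Rad51b, Rad51c, Rad51d, Xrcc2 and Xrcc3 0 of 5. Of those 14 uncalled genes 3, Ube2t, Rad51b and Xrcc3, had an unadjusted p under 0.05 by edgeR, and Ube2t and Rad51b passed by DESeq2. The median log2 fold change was 0.78 over the 34 members and 0.10 over all genes tested. In CPM, 21 members (61.8%) stood above all 3 WT libraries in all 3 mutants, where 18.0% of all genes did, and 0 stood below in all 3 mutants, where 22.6% of all genes did. Without WT 1, WT 2 or WT 3 none of the 12 passed by edgeR. Calls higher over all genes then numbered 6, 4 and 8, against 995 with all libraries, so the loss was not particular to the members. At an unadjusted p under 0.05, 16 members were higher in each of these fits, where the share over all genes was not counted. With all libraries 18 of the 34 members had an unadjusted edgeR p under 0.05, beside 6114 of the 19573 genes tested.

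**Figure D1:**
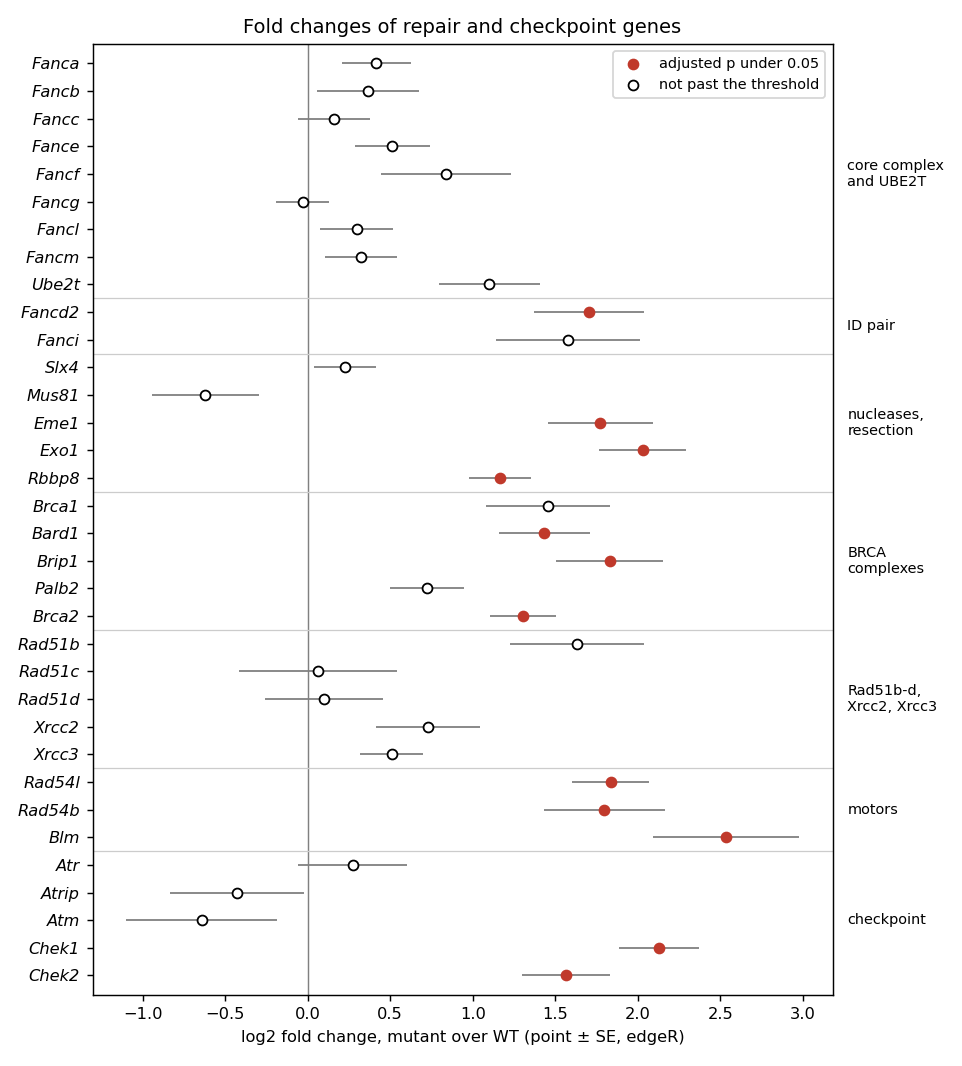
Fold change of each of the 34 genes (x axis, log2 of mutant over WT; points are the edgeR estimate and bars its SE), grouped by role down the page. The 12 filled points, from 1.16 (Rbbp8) to 2.54 (Blm), passed an adjusted p of 0.05, and all 9 genes of the core complex group are open points.

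Short promoter motifs were searched because E2F, the transcription factor family that switches on S-phase genes, is known to act on several recombination genes. RefSeq promoter windows on GRCm38.p6, from 250 bases before to 50 after the start, were matched for 28 of the 34 members; Exo1, Xrcc2, Fancd2, Rad51d, Rad54b and Rbbp8 were not searched. The E2F words TTTCCCGC, TTTGGCGC, TTTGCCGC or TTTCGCGC, on either strand, were found in 5 of 28 members (17.9%), against 2.60% of 27025 genes with a window. In the shorter window of 150 bases before the start they were in 2 of 28 members (7.14%), Fancg and Rad51c, and in 1.91% of genes. The matches, with 20 bases on each side, are shown in the direction of the gene with the word in capitals; Bard1, Brca2 and Chek2 rose, and Fancg and Rad51c did not pass.
Bard1 (chr1:71103154-71103201, minus strand): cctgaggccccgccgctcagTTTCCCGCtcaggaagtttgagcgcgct
Brca2 (chr5:150522433-150522480, plus strand): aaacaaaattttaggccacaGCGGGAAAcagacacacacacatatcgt
Chek2 (chr5:110839811-110839858, plus strand): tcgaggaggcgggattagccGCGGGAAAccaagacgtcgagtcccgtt
Fancg (chr4:43010326-43010373, minus strand): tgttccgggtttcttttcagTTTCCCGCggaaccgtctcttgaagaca
Rad51c, one start (chr11:87404932-87404979, minus strand): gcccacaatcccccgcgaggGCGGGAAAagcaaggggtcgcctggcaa
Rad51c, other start (chr11:87404468-87404515, minus strand): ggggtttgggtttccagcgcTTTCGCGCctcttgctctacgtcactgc

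The word is the same or its reverse complement in Bard1, Brca2, Chek2, Fancg and the first Rad51c window. It lies 209, 168 and 152 bases before the start in Bard1, Brca2 and Chek2, and 52 before it in Fancg. The words of the cell cycle homology region, TTTGAA or TTCGAA, were in 4 of 28 members (14.3%) and 21.7% of all genes. CCAAT was in 18 of 28 members (64.3%) and 41.1% of all genes. A match is a description of letters in the window and says nothing of binding.

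The BRCA complexes link resection to the later steps of recombination. Brca2, the breast cancer gene whose protein acts after resection (ENSMUSG00000041147, chromosome 5, 150522630 to 150570329), was at 45.4, 47.8 and 38.2 CPM in mutants 1, 2 and 3, against 18.0, 19.1 and 16.6 CPM in WT 1, 2 and 3. Every mutant was far above every WT library, and the gene rose by 1.31 ± 0.20 on the log2 scale (adjusted p = 0.0164 by edgeR). Bard1, the ubiquitin ligase partner of BRCA1, was at 38.6, 46.0 and 29.0 CPM in the mutants, against 15.9, 14.8 and 11.9 CPM in WT (log2 1.43 ± 0.28, adjusted p = 0.0281). Brip1, the helicase that binds BRCA1, was at 16.2, 12.7 and 15.2 CPM in the mutants, against 4.07, 5.31 and 3.02 CPM in WT (log2 1.83 ± 0.32, adjusted p = 0.0228). It had the largest fold change of the group and the lowest WT level. Brca1, which directs broken ends towards recombination, did not pass (log2 1.46 ± 0.38, adjusted p = 0.0581). It was at 25.6, 56.1 and 48.5 CPM in the mutants, against 19.3, 16.6 and 12.1 CPM in WT, so mutant 1 lay close to WT while the other two were far above it. Without mutant 1 the Brca1 estimate was 1.75 ± 0.26 and passed (adjusted p = 0.0175). Palb2, which bridges BRCA1 to BRCA2, was at 15.4, 17.6 and 16.3 CPM in the mutants, against 10.4, 9.35 and 10.4 CPM in WT (log2 0.72 ± 0.22, adjusted p = 0.0860). Its groups did not overlap, and without mutant 1 it passed as well (adjusted p = 0.0490). The 3 calls of this group were lost when any one WT library was left out (adjusted p up to 0.112 for Brca2, 0.142 for Bard1 and 0.125 for Brip1). With sex as a covariate, so that the genotype term rests on the male mutant 3, Bard1 and Brip1 were lost (adjusted p = 0.0953 and 0.0560) and Brca2 passed (0.0464). In limma with a variance for each group, which allows for the wider spread of mutants, Bard1 and Brip1 were lost as well (adjusted p = 0.0605 and 0.0960).

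Among the nuclease and resection genes 3 rose and 2 did not pass, with estimates from -0.62 to 2.03 on the log2 scale. Exo1, the exonuclease that extends resected ends (ENSMUSG00000039748, chromosome 1, 175880581 to 175913489), was at 25.2, 21.4 and 29.7 CPM in mutants 1, 2 and 3, against 5.91, 7.62 and 5.14 CPM in WT (log2 2.03 ± 0.26, adjusted p = 0.0114). Rbbp8, also called CtIP, which starts resection, was at 54.5, 51.3 and 42.5 CPM in the mutants, against 21.7, 23.2 and 22.0 CPM in WT (log2 1.16 ± 0.19, adjusted p = 0.0183). For both genes every mutant was above every WT library. Eme1, the partner that MUS81 needs to cut joint molecules, was at 11.9, 9.44 and 13.8 CPM in the mutants, against 4.05, 3.50 and 2.71 CPM in WT (log2 1.77 ± 0.32, adjusted p = 0.0233). Mus81 itself, the catalytic subunit, was at 19.2, 18.7 and 41.4 CPM in the mutants, against 39.9, 40.4 and 41.2 CPM in WT (log2 -0.62 ± 0.33, adjusted p = 0.248). In mutants 1 and 2 Mus81 was at less than 20 CPM and Eme1 above all WT levels, while mutant 3 had Mus81 just above the highest WT library. Without mutant 3, Mus81 passed as lower (log2 -1.06 ± 0.15, adjusted p = 0.0238). Mutants 1 and 2 are the female animals and there was 1 male mutant, so sex and animal cannot be told apart here. Slx4, the scaffold on which the nucleases assemble, was at 45.7, 42.6 and 63.8 CPM in the mutants, against 41.3, 44.4 and 44.7 CPM in WT (log2 0.23 ± 0.19, adjusted p = 0.455), with mutants 1 and 2 inside or near the WT range. When any one WT library was left out, Exo1, Rbbp8 and Eme1 did not pass (adjusted p up to 0.0814, 0.123 and 0.135). Eme1 was also lost in limma with a variance for each group (adjusted p = 0.0657).

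All 3 genes of the group of Blm, Rad54l and Rad54b, which encode motor proteins, rose. Brip1, a helicase, and Fancm, a translocase, were placed in other groups. Blm, the helicase that dissolves crossed-over DNA and whose human form is lost in Bloom syndrome (ENSMUSG00000030528, chromosome 7, 80454733 to 80535119), was at 41.3, 90.1 and 121 CPM in mutants 1, 2 and 3, against 15.0, 17.5 and 11.2 CPM in WT. The mutants differed by 2.94-fold among themselves but the lowest of them was still above every WT library, and the change of 2.54 ± 0.44 (adjusted p = 0.0223 by edgeR) was the largest of all 34 members. Rad54l, a translocase that acts in strand exchange, was at 23.7, 23.5 and 28.8 CPM in the mutants, against 7.81, 7.52 and 6.01 CPM in WT (log2 1.84 ± 0.23, adjusted p = 0.0108). Rad54b, its relative, was at 10.3, 6.14 and 9.04 CPM in the mutants, against 2.72, 2.75 and 1.83 CPM in WT (log2 1.80 ± 0.37, adjusted p = 0.0315). The mutants and WT did not overlap for either RAD54 gene. When any one WT library was left out the calls were lost (adjusted p up to 0.123 for Blm, 0.0769 for Rad54l and 0.159 for Rad54b). Rad54b was also lost without mutant 3 (0.0503), with sex as a covariate (0.0653) and in limma with a variance for each group (0.0899). Rad54b shares exon positions with Fsbp on the same strand, so its reads may be split between the genes.

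In the checkpoint group the effector kinases rose and the sensors did not pass. Chek1, the kinase that ATR activates (ENSMUSG00000032113, chromosome 9, 36708482 to 36727065), was at 27.0, 19.5 and 24.6 CPM in mutants 1, 2 and 3, against 6.12, 5.31 and 4.84 CPM in WT. No mutant came near the WT range, and the change of 2.13 ± 0.24 had the smallest adjusted p of all members (0.00853 by edgeR). Chek2, the kinase that ATM activates, was at 31.3, 40.0 and 53.8 CPM in the mutants, against 15.0, 15.6 and 11.8 CPM in WT (log2 1.57 ± 0.27, adjusted p = 0.0209). Atr, which senses single-stranded DNA at stalled forks, was at 39.1, 15.8 and 37.5 CPM in the mutants, against 23.6, 26.3 and 26.1 CPM in WT (log2 0.27 ± 0.33, adjusted p = 0.618). Mutant 2 lay below WT and the other two above it, and without mutant 2 Atr passed as higher (log2 0.56 ± 0.13, adjusted p = 0.0311). Atm, which senses broken ends, was at 8.71, 10.6 and 28.0 CPM in the mutants, against 21.3, 23.1 and 29.2 CPM in WT (log2 -0.64 ± 0.46, adjusted p = 0.382). As with Mus81, mutants 1 and 2 were below all WT animals and mutant 3 was not. Without mutant 3 Atm passed as lower (log2 -1.29 ± 0.24, adjusted p = 0.0401), and with sex as a covariate its estimate was 0.15 ± 0.29 (adjusted p = 0.766). Atrip, the partner of ATR, was at 1.17, 0.565 and 0.756 CPM in the mutants, against 0.961, 1.14 and 1.25 CPM in WT (log2 -0.43 ± 0.41, adjusted p = 0.513). It shares exon positions with Trex1 on the same strand, so its low level is uncertain. Chek1 and Chek2 were lost when any one WT library was left out (adjusted p up to 0.0719 and 0.122).

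The FANCD2-FANCI pair, the target of the core complex, was higher in all mutants than in any WT animal. Fancd2 (ENSMUSG00000034023, chromosome 6, 113531682 to 113597017) was at 14.6, 25.7 and 23.1 CPM in mutants 1, 2 and 3, against 7.90, 6.27 and 5.50 CPM in WT, and rose by 1.70 ± 0.33 (adjusted p = 0.0285 by edgeR). Fanci was at 5.65, 13.1 and 14.8 CPM in the mutants, against 4.10, 3.48 and 3.79 CPM in WT (log2 1.58 ± 0.43, adjusted p = 0.0670). Both were lowest in mutant 1, and Fanci passed without that animal (log2 1.91 ± 0.22, adjusted p = 0.0105). Fancd2 did not pass without mutant 3 (0.0558), with sex as a covariate (0.0699), in limma with a variance for each group (0.0606) or when any one WT library was left out (up to 0.147).

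None of the 9 core complex genes passed by edgeR, and their median log2 fold change was 0.36. At an unadjusted p under 0.05 there was 1 of the 9, beside 6114 of the 19573 genes tested. Fancg, a core subunit that binds FANCA, was at 34.1, 34.4 and 32.7 CPM in mutants 1, 2 and 3, against 33.4, 34.7 and 36.4 CPM in WT (log2 -0.03 ± 0.16, adjusted p = 0.911). The groups were interleaved and the mutants differed by 1.05-fold at most, the narrowest spread of any member among mutants. Fancc, which binds FANCE and FANCF in the complex, was at 26.3, 17.1 and 20.6 CPM in the mutants, against 18.2, 17.9 and 21.4 CPM in WT (log2 0.16 ± 0.22, adjusted p = 0.656). Fancl, the ligase subunit, was at 13.6, 15.5 and 16.8 CPM in the mutants, against 12.7, 13.0 and 11.9 CPM in WT (log2 0.30 ± 0.22, adjusted p = 0.402). Fancm, the translocase that anchors the complex to DNA, was at 14.7, 15.5 and 14.5 CPM in the mutants, against 11.1, 12.3 and 12.7 CPM in WT (log2 0.32 ± 0.22, adjusted p = 0.351). The mutants stood just above WT for Fancl and Fancm, without overlap. Ube2t, the conjugating enzyme that works with FANCL, was at 15.6, 11.3 and 17.9 CPM in the mutants, against 7.51, 7.98 and 5.30 CPM in WT. It had the largest estimate of the group, 1.10 ± 0.30, and did not pass by edgeR (adjusted p = 0.0668); it passed by DESeq2 (adjusted p = 0.00740) and by edgeR without mutant 2 (0.0312). The other subunits, Fanca, Fancb, Fance and Fancf, had estimates of 0.36 to 0.84 with adjusted p between 0.184 and 0.463, and mutant 2 overlapped WT in each. Without mutant 2, Fance (0.66 ± 0.17) and Fancf (1.12 ± 0.26) passed (adjusted p = 0.0407 and 0.0330).

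The group of Rad51b, Rad51c, Rad51d, Xrcc2 and Xrcc3, whose proteins assist strand exchange, had 0 of 5 members called by edgeR. Before adjustment 2 of the 5 had p under 0.05, beside 6114 of the 19573 genes tested. Rad51b was at 2.81, 1.79 and 2.33 CPM in mutants 1, 2 and 3, against 0.798, 0.898 and 0.530 CPM in WT (log2 1.63 ± 0.41, adjusted p = 0.0520). The groups did not overlap, and Rad51b passed by DESeq2 (adjusted p = 0.000496), without mutant 2 (0.0302) and with a minimum of 1 CPM in 3 libraries (0.0392). Xrcc3 was at 39.5, 27.9 and 31.5 CPM in the mutants, against 23.6, 23.7 and 22.4 CPM in WT (log2 0.51 ± 0.19, adjusted p = 0.132). Xrcc2 had an estimate of 0.73 ± 0.32 (adjusted p = 0.176), with all mutants above WT. Rad51d and Rad51c, which work in one complex with RAD51B and XRCC2, split between animals in opposite ways. Rad51d was at 41.1, 14.4 and 27.4 CPM in the mutants, against 23.8, 25.3 and 28.1 CPM in WT (log2 0.10 ± 0.36, adjusted p = 0.876). Rad51c was at 5.16, 13.0 and 5.15 CPM in the mutants, against 8.04, 7.43 and 7.54 CPM in WT (log2 0.06 ± 0.48, adjusted p = 0.942). Mutant 2 was the lowest of all 6 animals for Rad51d and the highest for Rad51c.

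**Figure D2:**
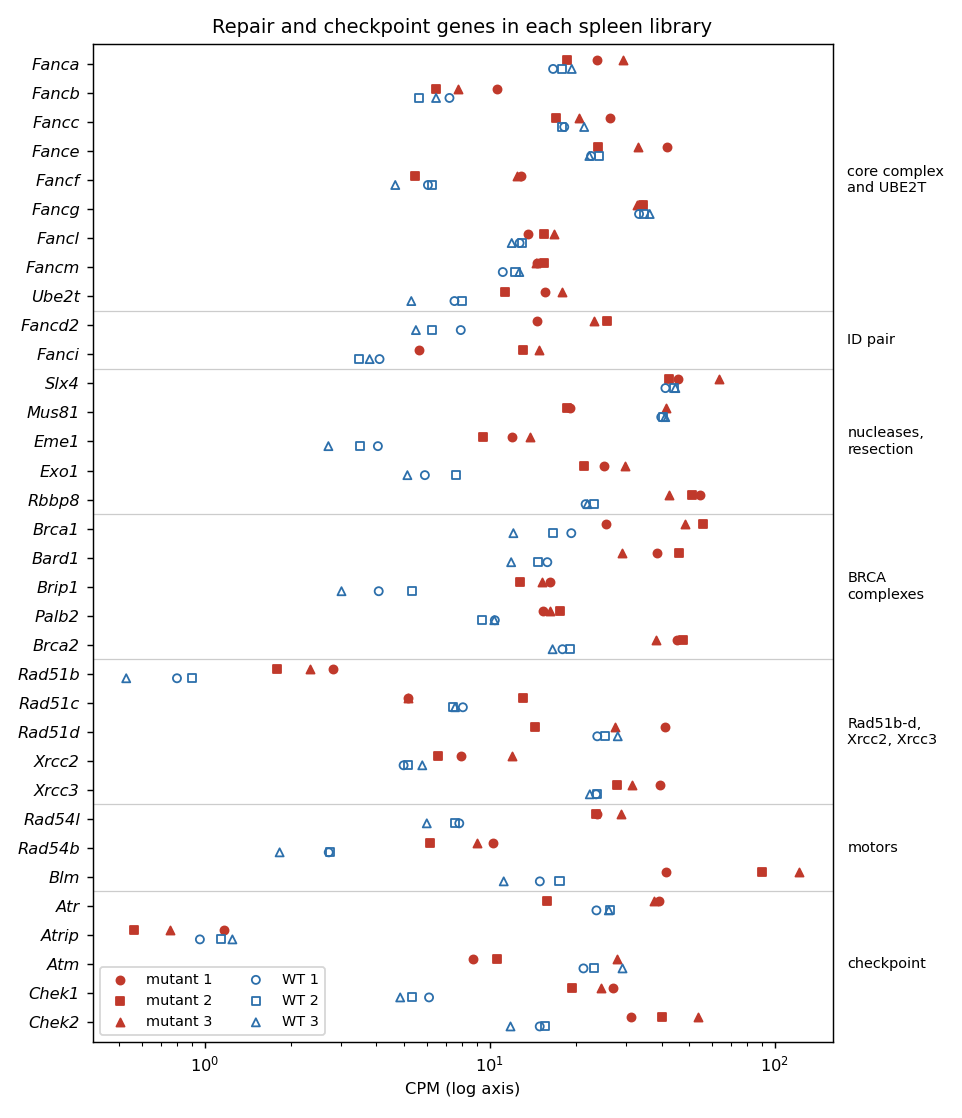
CPM of each gene in each of the 6 libraries (log x axis), with mutants as filled red symbols above WT as open blue symbols, grouped by role. The groups are separate for 21 genes, including Chek1, Exo1 and Rad54l, and interleaved for Fancg.

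The mutants differed from each other in which members stood above WT. Mutant 1 stood above all WT libraries for 29 members, mutant 2 for 22 and mutant 3 for 28, and below all of them for 3, 6 and 3. Mutant 2 was the lowest mutant for 20 of 34 members and had the highest value for 4 of the 5 BRCA complex genes. Shares over all genes were not counted for single mutants, so these counts do not set the members apart from other genes. The median log2 ratio to the WT mean was 0.74, 0.73 and 0.98 over all members in mutants 1, 2 and 3. Over the core complex group it was 0.46, 0.06 and 0.42, and over the FANCD2-FANCI pair 0.87, 1.88 and 1.89. Blm, Fancd2, Fanci, Brca1 and Chek2 were lowest in mutant 1, at 1.50, 1.16, 0.58, 0.68 and 1.15 on that scale, and each was above 1.4 in mutants 2 and 3. These 5 were picked after their values were seen. The summed levels of 26 mitosis genes and of 12 erythroid markers were also lowest in mutant 1 among the mutants, but this did not hold for every list. The sum of 36 replication genes was lowest in mutant 3 (4658, 4707 and 4216 CPM in mutants 1, 2 and 3). So was that of granulocyte and monocyte precursor markers, while the megakaryocyte and the stem and progenitor sums were lowest in mutant 2. The mitosis sum was 2729, 5489 and 3935 CPM in mutants 1, 2 and 3, against 1463, 1303 and 841 CPM in WT. The erythroid sum was 1471, 8507 and 4388 CPM in the mutants, against 2775, 2777 and 1550 CPM in WT. The part of any of these lists in the differences between mutants was not tested. In 27 of 34 members the mutants were spread over a larger fold than the WT animals, and the share over all genes was not counted. Over all genes the biological coefficient of variation was also larger in mutants (72.7%) than in WT (17.1%).

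**Figure D3:**
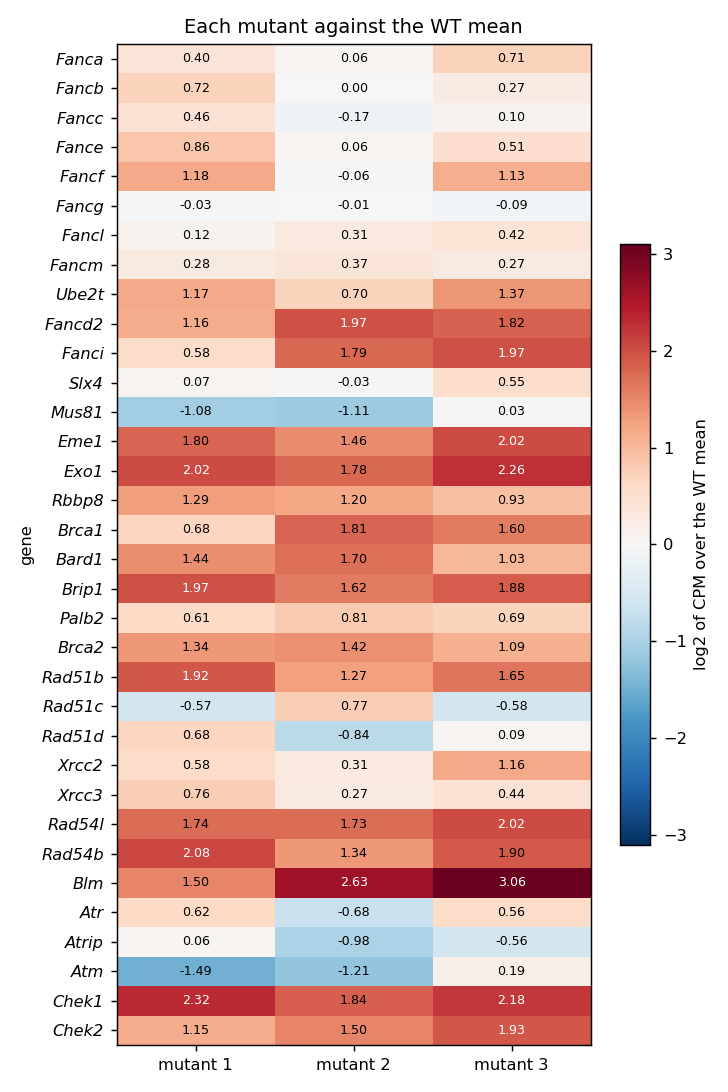
Log2 of each mutant's CPM over the WT mean for the 34 genes (colour scale and printed values, red for higher). Chek1, Exo1 and Rad54l are red in all 3 columns, whereas Mus81 and Atm are blue in mutants 1 and 2 and near 0 in mutant 3.

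**Figure D4:**
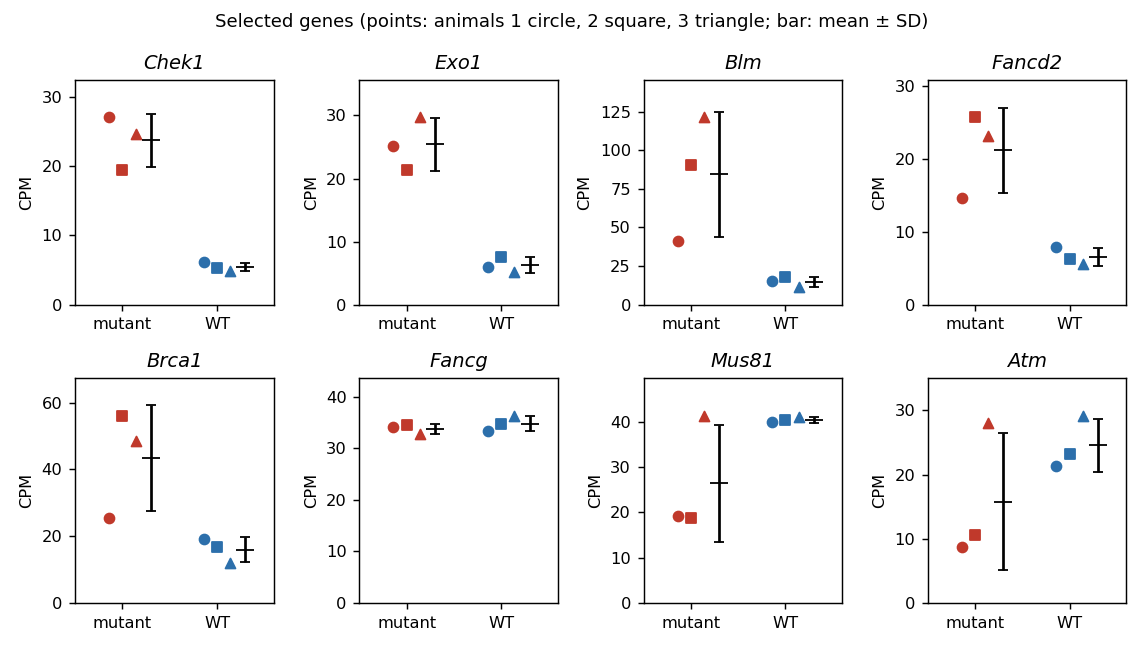
CPM of 8 genes in each animal (linear y axis from 0; symbols are animals, bars are mean ± SD, n = 3 in each group). Chek1, Exo1, Blm, Fancd2 and Brca1 are higher in all mutants, Fancg overlaps between the groups, and Mus81 and Atm are lower in mutants 1 and 2 but not in mutant 3.

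Levels per kilobase of merged exon length put the members in a different order in the groups. In mutants the highest were Chek2 (13.9 CPM per kb), Xrcc3 (12.0), Fance (10.3), Blm (9.60) and Fancg (8.89). In WT they were Mus81 (11.4 CPM per kb), Fancg (9.17), Xrcc3 (8.45), Fance (7.23) and Rad51d (6.93). Chek2 stood at rank 1 in mutants and rank 7 in WT, Blm at rank 4 in mutants and 18 in WT, and Atm at rank 29 in mutants and 11 in WT. Atrip was the lowest in both groups, at 0.116 CPM per kb in mutants and 0.156 in WT, followed by Rad51b. Merged exon length counts every annotated exon, so it understates genes with long rare exons.

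Of 41 further Fanconi and recombination genes 12 rose and 1 fell (median log2 0.69). The one that fell was Recql5, a helicase (log2 -0.89 ± 0.19, adjusted p = 0.0359 by edgeR), named after its value was seen. Dna2, a nuclease of resection, averaged 51.0 ± 3.27 CPM in mutants and 19.8 ± 1.50 CPM in WT (SD, n = 3 each; log2 1.37 ± 0.17, adjusted p = 0.0100 by edgeR). Of 19 further checkpoint genes 9 rose and 1 fell. Rad9a, a subunit of the checkpoint clamp, was the one that fell (log2 -0.93 ± 0.17, adjusted p = 0.0234 by edgeR), also named after its value was seen. Clspn, the adaptor through which ATR activates CHEK1, averaged 71.6 ± 18.2 CPM in mutants and 16.8 ± 3.41 CPM in WT (log2 2.11 ± 0.31, adjusted p = 0.0147 by edgeR), and Cdc25a, the phosphatase that CHEK1 restrains, rose by 1.34 ± 0.18 (adjusted p = 0.0127 by edgeR).

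Other repair routes were read from their own lists. In end joining without homology 1 of 11 genes rose (Aplf, log2 0.82 ± 0.20, adjusted p = 0.0477) and 1 fell (Polm, a polymerase that fills ends, log2 -1.34 ± 0.26, adjusted p = 0.0275). In mismatch repair 0 of 7 genes were called by edgeR, where 2 had p under 0.05 before adjustment and DESeq2 called 1, with Msh6 nearest (log2 0.71 ± 0.19, adjusted p = 0.0580). In base excision repair 2 of 21 rose and 1 fell. The gene that fell, named after its value was seen, was Neil1, a glycosylase (log2 -1.45 ± 0.31, adjusted p = 0.0346). Those that rose were Lig1, the ligase of replicated DNA (log2 1.56 ± 0.29, adjusted p = 0.0269), and Neil3, a glycosylase that also opens crosslinks (log2 1.99 ± 0.40, adjusted p = 0.0315). In nucleotide excision repair 1 of 14 rose, Rad23b (log2 0.61 ± 0.15, adjusted p = 0.0479), and Ddb1 came next (0.66 ± 0.21, adjusted p = 0.0900). The shares called higher were 9.09%, 0%, 9.52% and 7.14% for these lists, beside 29.3% for the further Fanconi and recombination genes. Over all genes tested 5.08% were called higher and 6.90% lower, so 0 to 2 calls in a list this short do not set it apart. The difference between lists was not tested.

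Genes of p53, which acts downstream of ATM and CHEK2, were read from a list of 21 targets, of which 5 (23.8%) rose by edgeR, where 5.08% of all genes did. DESeq2 called 8 higher and 1 lower. In all 3 mutants 11 of the 21 targets were above all WT libraries, where 18.0% of all genes were. Another 2 targets were below all of them, where 22.6% of all genes were. Cdkn1a, the inhibitor of cyclin-dependent kinases, was at 149, 60.2 and 59.5 CPM in mutants 1, 2 and 3, against 6.09, 7.15 and 7.20 CPM in WT (log2 3.72 ± 0.43, adjusted p = 0.00902). Rps27l rose by 1.63 ± 0.25 (adjusted p = 0.0160). The other three, named after their values were seen, were Eda2r (3.76 ± 0.83, adjusted p = 0.0382), Gtse1 (1.99 ± 0.38, adjusted p = 0.0281) and Sesn2 (0.90 ± 0.21, adjusted p = 0.0426). The list median was 0.93.

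Replication and mitosis genes also rose. Of 36 replication genes that are neither members nor in the repair lists above 30 rose, with a median log2 fold change of 1.58. Of 26 mitosis genes 16 rose, with a median of 1.72. Pola1 and Chaf1b had the smallest p of the replication list (log2 1.94 ± 0.19 and 2.37 ± 0.27, adjusted p = 0.00598 and 0.00841 by edgeR), and Bub1b and Cdc20 of the mitosis list (1.94 ± 0.23 and 1.64 ± 0.23, adjusted p = 0.00907 and 0.0134, with Aurkb at the same adjusted p as Cdc20). The summed level of the 34 members was 790.1, 781 and 944 CPM in mutants 1, 2 and 3, against 482, 496 and 476 CPM in WT, and that of the replication list 4658, 4707 and 4216 CPM in mutants, against 1928, 1888 and 1509 CPM in WT. The ratio of these sums was 0.170, 0.166 and 0.224 in mutants and 0.250, 0.262 and 0.316 in WT. Both sums were higher in every mutant than in any WT animal, and their ratio was lower in every mutant than in any WT animal. Among WT animals, WT 3 had the lowest replication and mitosis sums. Of the 34 members 18 were lowest in WT 3, as were 25.1% of all genes tested. These were 11 of the 12 members that rose and 7 of the 22 others. The calls were made from these same WT values, so that split is not independent of them.

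When libraries were scaled to equal replication counts in place of TMM, the median of all genes moved to -1.27 and that of the members to -0.55 on the log2 scale. On that scale 1 member, Blm, was called higher (log2 1.21 ± 0.43, adjusted p = 0.0465 by edgeR), where 0.940% of all genes were. The call for Blm was absent when WT 1, 2 or 3 or mutant 2 or 3 was left out, and when libraries were scaled on the mitosis list. Another 11 were called lower, 32.4% of the members against 49.7% of all genes tested: Fancg, Fancc, Fancl and Fancm of the core complex, Slx4 and Mus81, Rad51c, Rad51d and Xrcc3, and Atm and Atrip. Fancg had the smallest p of these (log2 -1.42 ± 0.27, adjusted p = 0.00571). The members that rose under TMM scaling, other than Blm, had estimates of -0.22 to 0.78 relative to the replication list and did not pass. The values were 0.78 ± 0.35 for Chek1 (adjusted p = 0.0934), 0.69 ± 0.35 for Exo1 (0.130), -0.07 ± 0.26 for Brca2 (0.829) and -0.22 ± 0.26 for Rbbp8 (0.493). With sex as a covariate 1 member was called on this scale, and without WT 1, 2 or 3 the number called was 4, 3 and 2.

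The 12 B-cell markers summed to 113, 130.4 and 59.2 CPM in mutants, against 6940, 7694 and 7840 CPM in WT. The 12 T-cell markers summed to 41.9, 321 and 33.4 CPM in mutants, against 1190, 978 and 1134 CPM in WT (Lck the most abundant), and the 6 germinal centre markers to 26.1, 55.8 and 24.9 CPM in mutants, against 128, 98.9 and 122 CPM in WT (Bcl6). The 9 markers of granulocyte and monocyte precursors summed to 1451, 535 and 438 CPM in mutants, against 113, 91.9 and 91.1 CPM in WT (Csf3r), and the 7 megakaryocyte markers to 3044, 886 and 5594 CPM in mutants, against 495, 533 and 311 CPM in WT (Itga2b). The 8 stem and progenitor markers summed to 1251, 107 and 402 CPM in mutants, against 160, 153 and 165 CPM in WT (Gata2). By edgeR 0 of the 8 rose and 1 fell, Mecom (log2 -1.74 ± 0.385, adjusted p = 0.0378), named after its value was seen. In all 3 mutants 1 of the 8 was above all WT libraries and 3 were below, where 18.0% and 22.6% of all genes were. The 7 endothelial and 8 stromal markers summed to 342 to 659 and 97.2 to 307 CPM in mutants, against 491 to 552 and 767 to 1011 CPM in WT (Pecam1 and Ccl21a). None of these markers was at 0 in all mutants, and their part in the members' changes was not tested.

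**Figure D5:**
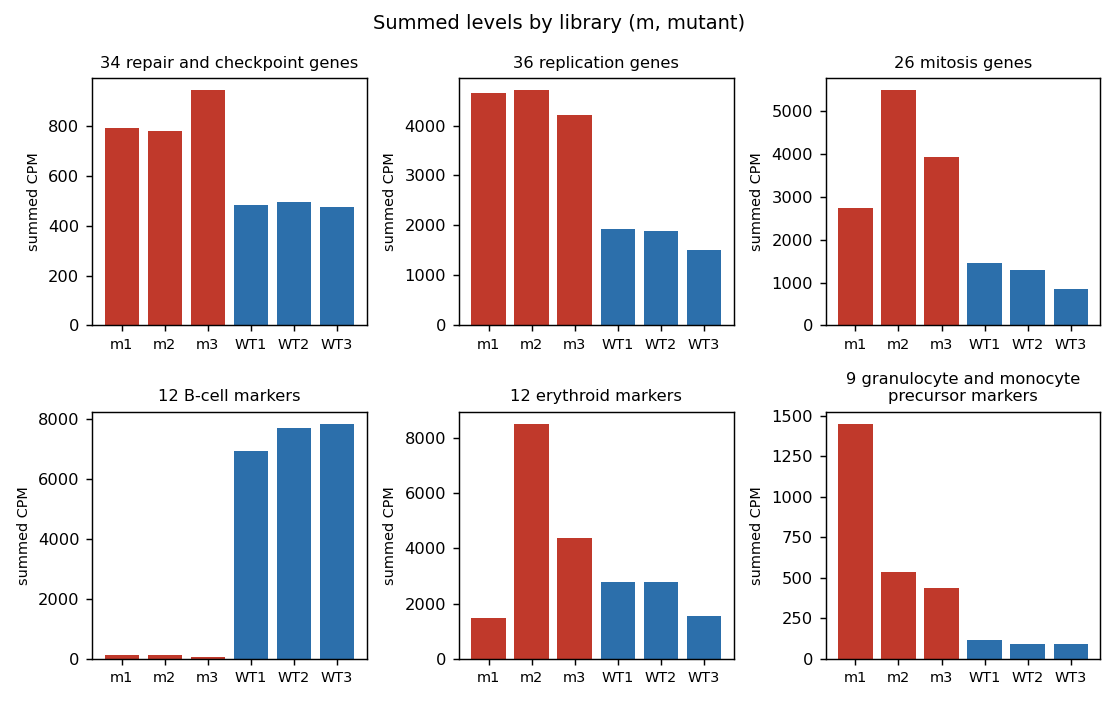
Summed CPM of the 34 genes and of 5 other lists in each library (bars from 0; mutants red, WT blue). The members and the replication and mitosis lists are higher in all 3 mutants, B-cell markers sum to 59.2 to 130.4 CPM in mutants, and erythroid and precursor markers differ between mutants.

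Exons of 17 of the 34 members overlap exons of a gene on the opposite strand, 6 of the 12 that rose among them. The libraries mark strand, but the strand setting of the counting is not stated, so reads of such gene pairs cannot be told apart. Among them are Eme1 with Lrrc59 and Mrpl27, Rad54l with Lrrc41, Fancd2 with Fancd2os and Mus81 with Efemp2.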

How the data were processed

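Per the labels' protocols, poly-A libraries that keep strand were built with 50 ng of RNA from a frozen spleen piece. The authors deposited whole-number counts per Ensembl gene without normalization. STAR 2.5.3a, limma and the builds mm10 and GRCm38 appear per the submitters' processing notes, which do not say what each was used for. For the annotation release, the strand setting and multi-mapping reads, the choice made is not given in the sources used here. Of 31771 identifiers 31669 matched a symbol of GENCODE M21 (GRCm38), which also gave positions and exon lengths.

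Differences were tested in R 4.3.3 with edgeR 4.0.16 (TMM factors, expression filter by group, robust quasi-likelihood fit, no covariate). The fit was also run on simulated counts with the same dispersion in both groups. The wider spread of the real mutants was not simulated, so that run does not cover it. CPM used library totals without TMM factors. SE is the log2 fold change over the square root of F. A repeat of that fit scaled libraries to the summed counts of 36 replication genes. Alternatives were RLE and upper-quartile factors, other filters, omission of haemoglobin and immunoglobulin genes, DESeq2 1.42.0, limma 3.58.1, sex as a covariate, and each library left out. Per-library values are given for members past the threshold in either scaling, for the smallest and largest p of each role, and for the highest and lowest level per kb; of the other repair and cell cycle lists the 2 smallest p, and of marker lists the most abundant gene, are named. Some genes that this rule picks are not reported here. Brca1 was added to these, and genes singled out in the text grouped, after values were seen. Members and lists were chosen with earlier results of these data known. Replicate numbers only name animals. Nothing beyond the labels describes how the animals were chosen, so p-values speak only of these samples. They set the difference between groups against the spread within them, and edgeR took that spread as the same in mutants and WT.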

Additional observations from a re-analysis of the deposited data

How the results depend on the processing

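No paired analysis was possible because the labels give no replicate number or other link between mutant and WT animals. The 12 members called higher were also called with RLE or upper-quartile factors, without haemoglobin and immunoglobulin genes, with no filter and with the 1 CPM filter, which added Rad51b. DESeq2 called 17 and limma-voom with sample weights 14, each including the 12, while limma with a variance for each group called 7 (without Bard1, Brip1, Eme1, Fancd2 and Rad54b) and sex as a covariate 8, all among the 12. Leaving out each library in turn gave 0 to 17 called higher and 0 to 2 called lower, the 2 being Mus81 and Atm without mutant 3. Whenever a WT library was left out 0 were called higher, and 16 were higher at an unadjusted p under 0.05. The share of all genes at that unadjusted p was not counted in those fits. Over all genes the calls then numbered 4 to 8 higher and 119 to 130 lower without a WT library, against 995 higher and 1351 lower with all libraries; the cause was not tested. Relative to the replication list 12 were called in all, 1 with sex as a covariate, 8 scaled on the mitosis list, where Blm was not called, and 2 to 13 with a library left out. In the shorter promoter window the E2F and cell cycle homology words were each in 2 members (7.14%), against 1.91% and 13.7% of all genes, and CCAAT in 12 (42.9% against 31.9%). Some signs reversed: Rad51c was at -0.049 with upper-quartile factors, -0.63 with sex as a covariate, -0.38 by limma-voom with sample weights and -0.12 with a variance for each group, where Rad51d was at -0.01, and Atm, at -0.64 without the covariate, was at 0.15 with sex as a covariate. With a library left out, Rad51c ranged from -0.61 to 0.31, Rad51d from -0.28 to 0.38 and Fancg from -0.09 to 0.02. The remaining fold changes kept their sign in these alternatives, the scaling to the replication list excepted, where the signs of many members turned, Rbbp8, Brca2, Palb2 and Ube2t among them. Depth was not varied. Atrip and Rad51b had the lowest CPM, so counting error weighs most on them.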
